A study of Oryza sativa with 14 samples.

Results

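In rice leaves, 149 of the 21107 loci with a mean level of at least 1 CPM (counts per 1000000 counts of a library) stood apart between 2 htg3 mutant lines and wild type (WT) in the same direction without heat and after heat. The loci were chosen from these levels. Within heat-treated and within untreated libraries, the lowest of the 4 htg3 libraries had to reach at least 1.3 times the highest of the 3 WT libraries (higher), or the highest htg3 library had to lie at or below the lowest WT library divided by 1.3 (lower). By this rule 131 loci were higher and 18 lower. In 11 of them the inequality held in at least 1 treatment only because both sides were 0, which leaves 138 loci with a real gap in both treatments, 123 higher and 15 lower. No locus with real gaps switched direction between treatments.

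The 14 libraries are from leaves of Zhonghua 11 (ZH11) rice seedlings at the 4-leaf stage, grown in pots. They fall into heat-treated htg3_cr12 (2 libraries) and htg3_cr2 (2), kept at 42 °C for 0.5 h, heat-treated WT (3), untreated htg3_cr12 (2) and htg3_cr2 (2), and untreated WT (3). The labels call cr12 and cr2 transgenic lines of the htg3 mutant and describe neither mutation, so each line may stem from a single event, and a difference that the 4 htg3 libraries share rests on 2 lines. Nothing in the labels says that replicates came from separate plants, so p-values measure only the spread between these libraries, which may be technical. The labels do not give the locus of HTG3, so its own level was not checked.

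Plants answer sudden heat through heat shock factors, transcription factors that bind short repeated elements in promoters and raise the genes of chaperones within minutes. HTG3 is known from published work as a rice heat tolerance gene that encodes such a factor. Where the level of a locus differs between genotypes in cool and in hot leaves alike, the difference is already there before the stress. Changes of this kind can touch genes that heat itself raises, lowers or leaves alone. The loci are named here by their locus IDs because the sources used here pair them with no gene names or functions. In an ID, the 2 digits after "Os" are the chromosome, and higher numbers lie further along it.

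Totals per library ran from 92036741 to 99404634 counts, and libraries of 1 group correlated at 0.972 to 0.985 across loci. Of 10 loci listed as leaf photosynthesis markers 9 are in the table. After heat they summed to 15000 to 21100 CPM in cr12, 32800 to 36000 CPM in cr2 and 21300 to 30000 CPM in WT, and untreated to 48700 to 56600, 63000 to 84300 and 56900 to 62500 CPM in the same order, while 2 shoot meristem markers summed to at most 0.134 CPM in any library. Root silicon transporters, 1 of 2 at 0 in every group, summed to 22.6 to 25.5 CPM in cr12, 13.6 to 14.7 CPM in cr2 and 16.7 to 22.8 CPM in WT after heat, and to 6.87 to 10.5 CPM in the htg3 lines and 4.96 to 6.12 CPM in WT untreated. The sum of 5 heat-induced chaperones was 27200 to 32700 CPM in cr12, 20000 to 20700 CPM in cr2 and 23100 to 26100 CPM in WT after heat, and 214 to 393 CPM in untreated leaves. None of the 25 loci of the marker lists that are in the table was among the 149. The sum of 7 dividing-cell markers differed between genotypes in both treatments, and in WT it overlapped between treatments. It was 56.4 to 120 CPM in heat-treated htg3 leaves, against 26.6 to 55.2 CPM in heat-treated WT. Untreated, it was 31.3 to 36.4 CPM in htg3 leaves, against 22.6 to 26.8 CPM in WT. Not every marker followed the sum. For example, LOC_Os11g29380 overlapped WT in untreated cr2, and LOC_Os06g51110 overlapped WT in untreated cr12. The part of these markers in the results below was not tested. In bulk leaf RNA, more cells of a type and more RNA per cell cannot be told apart.

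**Figure D1:**
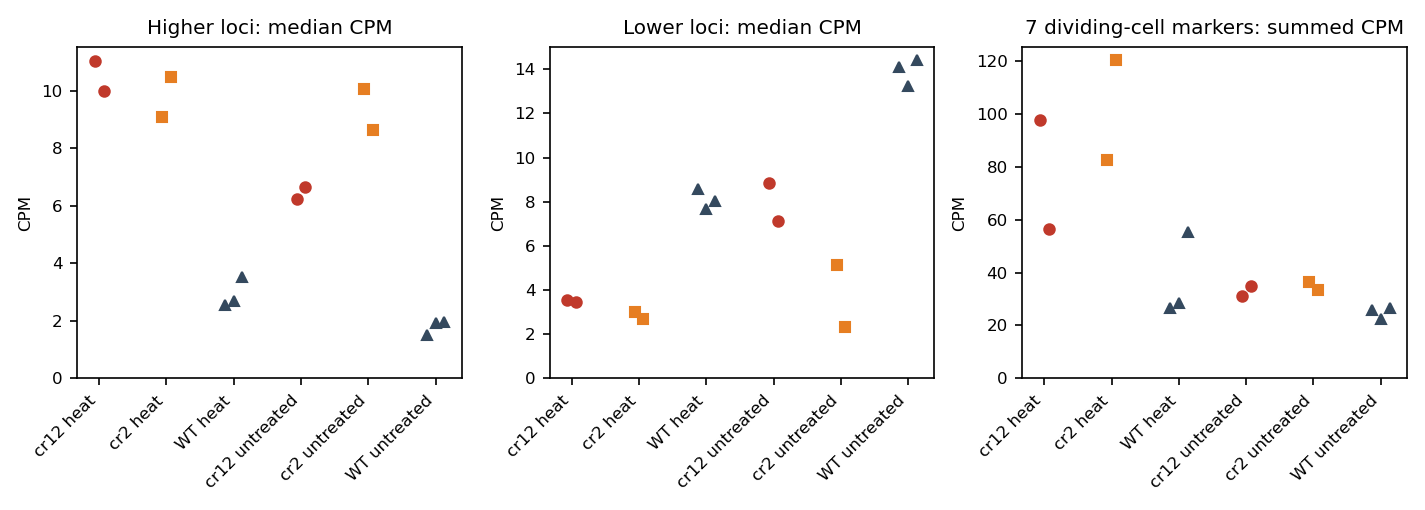
Median CPM of the 123 higher loci (left), median CPM of the 15 lower loci (middle) and summed CPM of 7 dividing-cell markers (right), 1 point per library, for cr12, cr2 and WT after heat and then untreated. The higher loci had medians of 9.07 to 11 CPM in heat-treated htg3 libraries and 2.54 to 3.51 CPM in heat-treated WT libraries, and the dividing-cell sum of WT heat replicate 3, 55.2 CPM, lies apart from 26.6 and 28.7 CPM in the other heat-treated WT libraries.

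In 13 of the 123 higher loci the WT mean was under 0.5 CPM in both treatments. The gap, the log2 ratio between the nearest libraries of the 2 genotypes after adding 0.1 CPM (the smaller of both treatments), was not wide in all of them, at 0.54 in LOC_Os08g22604, 0.56 in LOC_Os02g58370 and 0.95 in LOC_Os12g35310. LOC_Os03g02470 on chromosome 3 had the widest gap of all higher loci, 6.84. Its level was 63.3 and 49.9 CPM in cr12 and 39.6 and 37.9 CPM in cr2 after heat, against 0.185, 0.222 and 0.212 CPM in WT. Untreated, it stood at 67.2 and 67.5 CPM in cr12 and 51.6 and 38.6 CPM in cr2, against 0, 0 and 0.237 CPM in WT. All 8 htg3 libraries were above 37 CPM and every WT library was below 0.25 CPM, and with heat the cr12 level was lower in both libraries while that of cr2 overlapped (htg3 lines -0.12 ± 0.31, adjusted p = 0.777).

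LOC_Os03g43100 showed the same pattern. It had 14.7 and 11.9 CPM in cr12 and 10.7 and 10.8 CPM in cr2 after heat, against 0.206, 0 and 0.0424 CPM in WT. Untreated, the values were 11.8 and 13.1 CPM in cr12 and 12.3 and 9.84 CPM in cr2, against 0 in the 3 WT libraries, which makes the untreated htg3 mean at least 282-fold higher. The rise with heat called in WT (adjusted p = 0.014) rests on 24 counts after heat and was lost with limma-voom (adjusted p = 0.119). Bounds of this kind set the WT group at 3 sequenced fragments, taken as 12 counts over the group (0.0418 CPM untreated, 0.042 CPM after heat). LOC_Os01g62740 was without a count in all 6 WT libraries. It stood at 1.93, 1.69, 1.68 and 1.97 CPM in the heat-treated and 2.36, 2.09, 1.79 and 1.65 CPM in the untreated htg3 libraries, at least 43.3-fold and 47.2-fold higher.

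LOC_Os04g18770 and LOC_Os01g25470 were likewise flat within the htg3 lines. LOC_Os04g18770 averaged 4.31 ± 0.606 CPM in heat-treated htg3 and 0.0669 ± 0.082 CPM in heat-treated WT leaves (SD, n = 4 and 3), and 4.72 ± 0.5 CPM in untreated htg3 and 0.0107 ± 0.0186 CPM in untreated WT leaves. For LOC_Os01g25470 the means were 2.53 ± 0.355 and 0.0521 ± 0.0474 CPM after heat and 2.08 ± 0.194 and 0.0815 ± 0.0999 CPM untreated, htg3 before WT in each pair. In both loci the groups lay far outside each other's range.

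**Figure D2:**
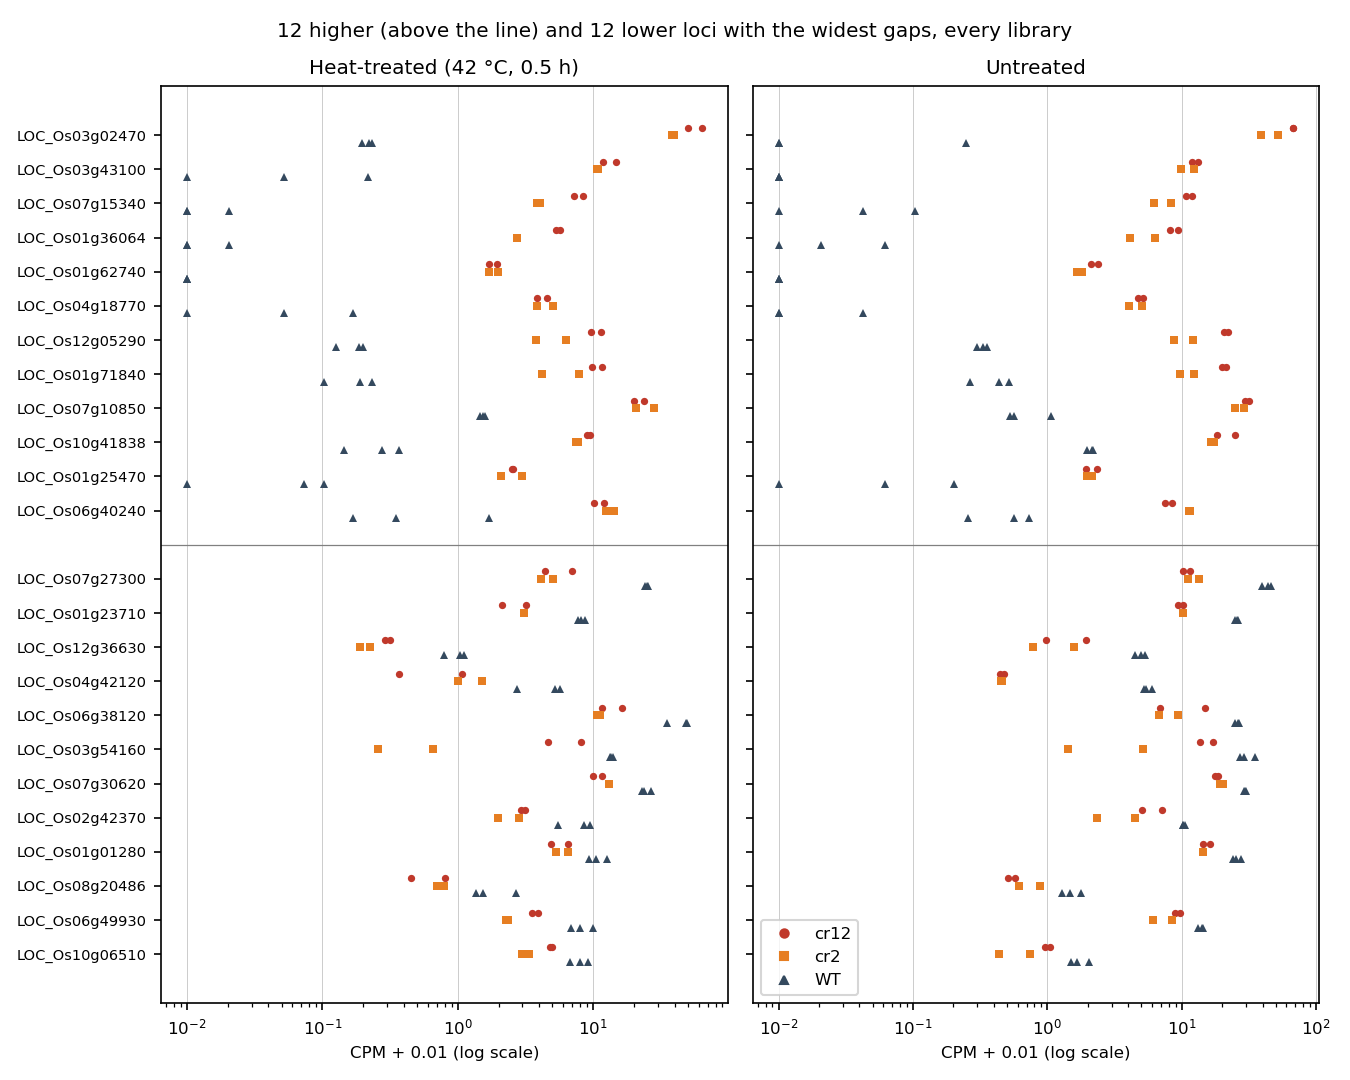
CPM plus 0.01 on a log axis in every library, heat-treated on the left and untreated on the right, for the 12 higher loci (above the grey line) and the 12 lower loci (below it) with the widest gaps. Circles are cr12, squares cr2 and triangles WT. In the upper rows WT sits at or below 2.17 CPM, and in the lower rows the genotypes stand closer together.

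Of the 78 pairs among the 13 near-silent loci, the pair with the steadiest ratio over the 8 htg3 libraries lies on chromosomes 1 and 7 and the next on chromosomes 1 and 12. Both were picked for this and are given as a description. LOC_Os01g36064 stood at 5.71, 5.33, 2.72 and 2.73 CPM in the heat-treated and 8.1, 9.3, 6.33 and 4.13 CPM in the untreated htg3 libraries. LOC_Os07g15340 stood at 8.41, 7.14, 4.07 and 3.85 CPM and at 10.8, 11.9, 8.28 and 6.25 CPM in the same libraries. The ratio of LOC_Os01g36064 to LOC_Os07g15340 stayed between 0.661 and 0.785 in all 8 libraries, an SD of 0.0953 on the log2 scale. In WT both had at most 0.0928 CPM.

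The next pair was LOC_Os01g71840 and LOC_Os12g05290. LOC_Os01g71840 had 11.7 and 9.86 CPM in cr12 and 7.81 and 4.17 CPM in cr2 after heat, against 0.0928, 0.222 and 0.18 CPM in WT, and 19.8, 21.5, 9.71 and 12.4 CPM in the untreated htg3 libraries, against 0.257, 0.423 and 0.505 CPM in WT. LOC_Os12g05290 had 11.4, 9.62, 6.27 and 3.79 CPM after heat and 20.7, 22.2, 8.69 and 12.1 CPM untreated in the htg3 libraries. Their ratio stayed between 0.954 and 1.24, with an SD of 0.125. Over all 78 pairs the median SD was 0.768 and the largest 1.88. Whether the members of such a pair share sequence, and so reads, was not tested, and their single values are uncertain to that extent.

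LOC_Os07g10850, LOC_Os10g41838 and LOC_Os06g40240 also had wide gaps and were measurable in WT. LOC_Os07g10850 had 23.7, 20, 28.2 and 20.8 CPM in heat-treated htg3 libraries, against 1.58, 1.45 and 1.53 CPM in WT. Untreated, it had 31.7, 29.6, 24.7 and 28.9 CPM in htg3 libraries, against 0.515, 0.557 and 1.06 CPM in WT. With heat its log2 change was -0.2 ± 0.18 (SE) in the htg3 lines (adjusted p = 0.35), and it rose by 1.24 ± 0.24 in WT (adjusted p = 0.0008). Differences of heat changes between genotypes follow from the values that chose the loci and were not tested, here or below.

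LOC_Os10g41838 fell with heat in both genotypes. It averaged 8.39 ± 0.948 CPM in heat-treated htg3 and 0.253 ± 0.113 CPM in heat-treated WT leaves, and 19.2 ± 3.71 CPM in untreated htg3 and 2.09 ± 0.111 CPM in untreated WT leaves. The heat change was -1.08 ± 0.18 in the htg3 lines (adjusted p = 0.00026) and -2.89 ± 0.26 in WT (adjusted p = 1.8e-06). LOC_Os06g40240 was at 12.2 ± 1.75 CPM in heat-treated htg3 and 0.726 ± 0.831 CPM in heat-treated WT leaves, and at 9.65 ± 1.99 and 0.509 ± 0.241 CPM in untreated htg3 and WT leaves, without a heat call in the htg3 lines or WT.

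Most higher loci differed by less. The median shift, the log2 ratio of the htg3 mean to the WT mean after adding 0.1 CPM to each, was 1.395 after heat and 1.72 untreated over the 123 loci. It was at least 1, or 2-fold, in 100 loci after heat and 116 untreated, and at least 3 in 16 and 23. The median of their mean CPM, which is not scaled for locus length, was 6.81, against 15.5 over the 21107 loci. These sizes follow from the choice of the loci. For comparison, the same rule in 1 treatment alone passed 478 loci as higher (2.26%) and 129 as lower (0.611%) after heat, and 289 (1.37%) and 147 (0.696%) untreated, while both treatments together passed 0.583% and 0.0711%.

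The 4 higher loci with the highest mean CPM were LOC_Os01g14850, LOC_Os02g57110, LOC_Os05g38000 and LOC_Os07g01904. LOC_Os01g14850 had 338 and 292 CPM in cr12 and 206 and 317 CPM in cr2 after heat, against 82.4, 96.3 and 135 CPM in WT. Untreated, it had 76.4 and 63.5 CPM in cr12 and 165 and 167 CPM in cr2, against 15.3, 30.6 and 25 CPM in WT. Its htg3 mean was thus 2.75 times the WT mean after heat and 5 times untreated, with cr2 above cr12 in untreated leaves and overlapping it after heat.

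LOC_Os07g01904 moved the other way with heat. It stood at 47.6, 38, 50.2 and 39.8 CPM in heat-treated htg3 libraries, against 5.3, 3.44 and 4.21 CPM in WT. Untreated, it stood at 154, 164, 75.8 and 98.3 CPM in htg3 libraries, against 12.3, 10.7 and 14.3 CPM in WT. The ratio of the means was 10.2 after heat and 9.91 untreated, nearly the same while the level itself fell in the htg3 lines (-1.32 ± 0.15, adjusted p = 9.2e-06) and in WT (-1.38 ± 0.18, adjusted p = 3.7e-05).

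**Figure D3:**
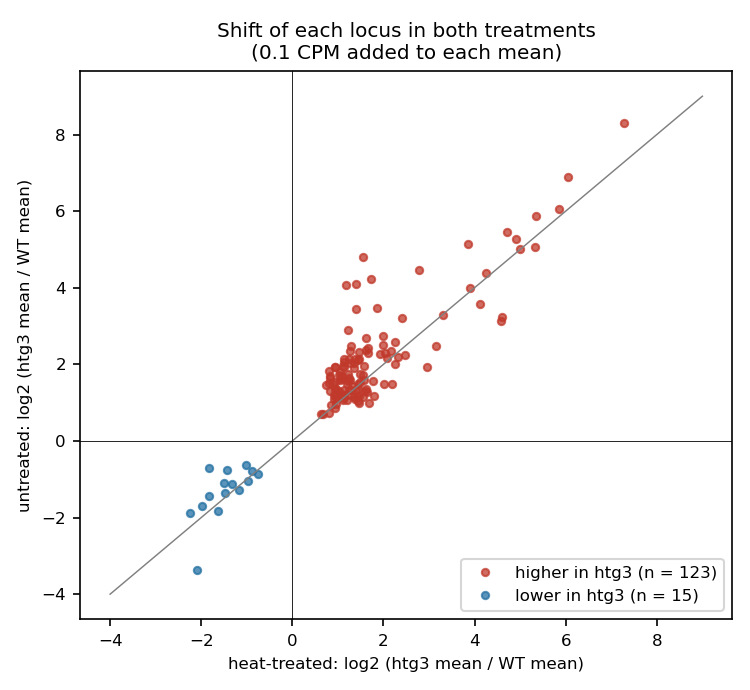
Log2 ratio of the htg3 mean to the WT mean (0.1 CPM added to each) after heat (x axis) and untreated (y axis), 1 point per locus, for the 123 higher and 15 lower loci, with the line of equal shift in grey. The loci lie along the line, with 105 of the 123 higher and 13 of the 15 lower loci within 1 log2 unit of it.

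The rule sets the direction of the shift and a least size for it in both treatments. Of the 123 higher loci 64 had shifts within 0.5 log2 units of each other. In 15 it was smaller after heat by at least 1 unit and in 3 larger. The loci named next were chosen for this after their values were seen. LOC_Os03g04530 had the biggest change of shift, 1.54 after heat against 4.80 untreated. It stood at 29.3, 27.5, 26.1 and 31 CPM in heat-treated htg3 libraries, against 5.66, 9.56 and 13.9 CPM in WT, and at 2.71, 1.65, 12.8 and 10.4 CPM in untreated htg3 libraries, against 0.204, 0.165 and 0.0824 CPM in WT. Heat brought the locus up in both genotypes, and from a lower start in WT.

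LOC_Os05g34700, LOC_Os04g42860, LOC_Os01g10490 and LOC_Os03g47940 gave the same picture. After heat the htg3 mean was 2.28, 2.65, 3.3 and 2.64 times the WT mean, and in untreated leaves 18.6, 19.1, 20.4 and 11.6 times. The opposite held for LOC_Os10g41838, with a shift of 4.59 after heat and 3.14 untreated, and for LOC_Os01g49750, with 4.6 and 3.22. For LOC_Os01g49750 this rests on the 0.1 CPM added, since its plain ratio of means was 27.3 after heat and 24.3 untreated. It had 30.7 and 26.1 CPM in cr12 and 16.3 and 13.6 CPM in cr2 after heat, against 0.598, 1.32 and 0.467 CPM in WT, and 1.54, 1.58, 0.879 and 1.43 CPM in untreated htg3 libraries, against at most 0.0751 CPM in WT.

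Heat itself changed most of the higher loci, a contrast the rule did not use. In the htg3 lines 60 of the 123 rose with heat and 20 fell, 48.8% and 16.3%, where 27.6% and 28.5% of all 28823 tested loci did so (edgeR, adjusted p under 0.05). In WT 70 rose and 12 fell, 56.9% and 9.76%, where 24.8% and 26.3% of all tested loci did. The heat changes of WT and of the htg3 lines share no library. The rule still bounds the WT level by the htg3 level in each treatment, which limits changes in opposite directions. Rises were called in both for 58 loci and falls in both for 10, with no locus called in opposite directions. The share of all tested loci called in both was not counted, so this agreement is not read as particular to these loci. The median log2 heat change was 0.484 in the htg3 lines and 1.02 in WT, against -0.0296 and -0.0546 over all tested loci. The 20 falls in the htg3 lines were 11 without untreated cr12 replicate 2, 12 without untreated cr2 replicate 2, 13 without heat-treated cr2 replicate 1 and 11 without heat-treated cr2 replicate 2. The 12 falls in WT were 7 when the fit held just the groups being compared.

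**Figure D4:**
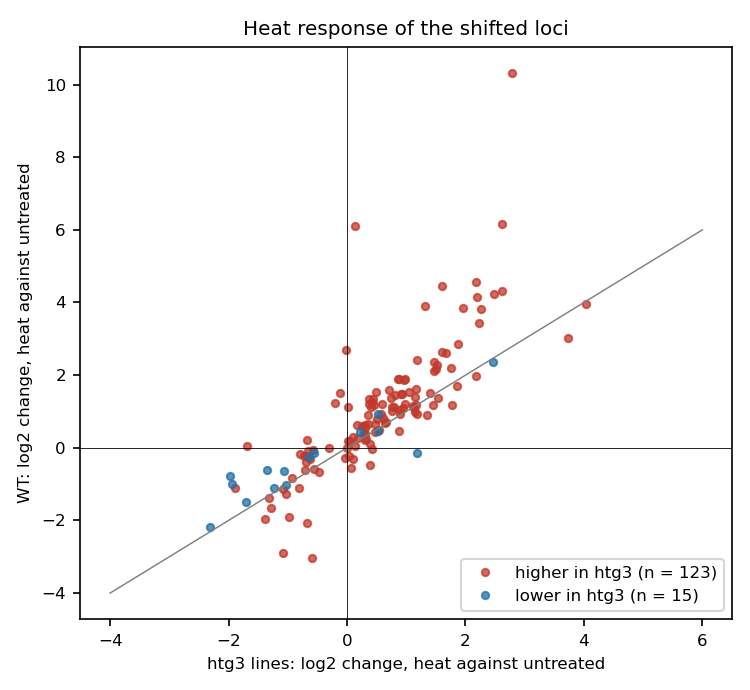
Log2 change with heat in the htg3 lines (x axis) and in WT (y axis), 1 point per locus, for the 123 higher and 15 lower loci, with the line of equal change in grey. Rises in both were called for 58 higher loci, and the share of all tested loci called in both was not counted. The point at a WT change of 10.32 is LOC_Os06g03080, which had no count in untreated WT, so that its fitted change has no fixed size.

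Among the rises, LOC_Os01g49750 led in the htg3 lines at 4.04 ± 0.31 (adjusted p = 4e-07) and rose by 3.97 ± 0.49 in WT (adjusted p = 3.05e-05). LOC_Os06g03080 had the biggest fitted rise in WT among loci with a gap. In the htg3 lines it stood at 7.44, 4.45, 4.54 and 7.42 CPM after heat and 0.63, 0.584, 1.35 and 1.49 CPM untreated (2.79 ± 0.43, adjusted p = 0.00031), and in WT at 0.495, 1.91 and 2.3 CPM after heat and 0 in the 3 untreated libraries (adjusted p = 1.9e-05). LOC_Os07g15340 was called as falling in WT (adjusted p = 0.042), on 1 count after heat and 12 counts untreated, and lost the call in 14 of 19 alternatives (adjusted p up to 0.339), so it is not read as a change.

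Some WT libraries stood closer to the htg3 lines than others. Across the 3 heat-treated WT libraries, replicate 3 had the highest level in 85 of the 123 higher loci (42.5% of the 21107 loci did so) and also the highest dividing-cell sum, whose part in this was not tested. In untreated WT, replicate 1 was lowest in 67 of the 123 (34.1% of the 21107 loci). Without heat-treated WT replicate 3 the rule passed 192 higher loci, against 123 with it. The rule compares extreme libraries, so leaving out a library cannot close a gap. It also passed 176 without untreated WT replicate 3 and 172 without untreated cr12 replicate 1, so a rise of this kind is not particular to 1 library.

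Most calls between the lines were in untreated leaves, where cr2 stood further from WT in most, but not all, of the higher loci. In 75 of the 123 loci both untreated cr2 libraries lay above both cr12 libraries, and in 21 the reverse held, whereas over the 21107 loci cr2 lay above in 18.5% and cr12 in 40.7%. After heat the counts were 18 and 33, against 26.3% and 25.5%. By edgeR 1 of the 123 was higher and 21 were lower in cr12 than in cr2 untreated, 0.813% and 17.1%, against 1.56% and 2.24% of all tested loci. After heat 2 were higher and 0 lower (4 at an unadjusted p under 0.05, 1 by DESeq2 and 1 by limma-voom), against 2.18% and 3.45% of all tested loci. The lines also stood apart in the leaf photosynthesis sum in both treatments, with cr2 above cr12 in every library, and in the chaperone sum after heat, with cr12 above cr2. Single markers did not all follow these sums. Untreated, LOC_Os11g47970 (photosynthesis) was higher in cr12, and after heat LOC_Os06g50300 (chaperones) was higher in cr2 and LOC_Os01g04380 (chaperones) overlapped. The part of these markers was not tested. The rule ties both lines to WT from 1 side, so it limits how low either line can lie but not how high.

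The 21 calls rest on few libraries. They fell to 1 without untreated cr2 replicate 2, to 3 without untreated cr12 replicate 1, to 4 without untreated cr12 replicate 2 and to 1 when the fit held just the groups being compared, and numbered 36 with DESeq2. Of these 21 loci 19 also rose with heat in the htg3 lines and 20 in WT, and the edgeR estimates of the others, LOC_Os02g57740 (0.35 in the htg3 lines, 0.65 in WT) and LOC_Os10g05950 (0.17 in the htg3 lines), were above 0 without a call. Of the remaining 102 higher loci, 41 rose and 20 fell with heat in the htg3 lines, and 50 rose and 12 fell in WT. Of all tested loci 27.6% rose and 28.5% fell in the htg3 lines, and 24.8% rose and 26.3% fell in WT. The untreated cr12 libraries enter both the choice of the 21 and the heat change of the htg3 lines. They do not enter the heat change of WT, but the rule keeps untreated WT at or below untreated cr12 divided by 1.3. The choice of the 21 thus bounds the untreated WT level too, and the 20 rises in WT are not independent of it. A direct test of whether the heat change differed between the lines called 0 of the 123 loci by edgeR, against 0.00347% of all tested loci. At an unadjusted p under 0.05 by edgeR, 37 leaned toward a stronger rise in cr12 and 2 the other way. DESeq2 gave 14 calls and limma-voom 0. The shares of all tested loci for these further counts were not taken, so they are not read as an excess. A difference of the line effect between treatments was not established.

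LOC_Os09g37600 was one of the 21. After heat the lines overlapped, at 33.2 and 22.2 CPM in cr12 and 19.8 and 28.3 CPM in cr2, against 5.27, 7.26 and 12.6 CPM in WT. Untreated, it had 3.74 and 3.75 CPM in cr12 and 19.2 and 17 CPM in cr2, against 1.53, 2.55 and 1.96 CPM in WT (cr12 against cr2 -2.38 ± 0.36, adjusted p = 0.0091). LOC_Os08g39590 had the smallest adjusted p of the 21, 0.0062, and was picked for it. This call was lost without untreated cr2 replicate 2 (adjusted p = 0.0508) and when the fit held just the groups being compared (0.0632), and that of LOC_Os09g37600 without untreated cr12 replicate 1 (0.0605) or untreated cr2 replicate 2 (0.0509). The levels of LOC_Os08g39590 were 14.4 and 14 CPM in untreated cr12 and 29.6 and 29.5 CPM in untreated cr2, against 6.24, 6.47 and 7.35 CPM in WT.

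The median CPM over the 21 loci was taken in each library. After heat it was 32.4 and 28.8 in cr12 and 24.3 and 35.7 in cr2, against 11.1, 10 and 15.3 in WT. In untreated leaves it was 8.94 and 8.36 in cr12 and 21.3 and 25.4 in cr2, against 2.14, 3.77 and 2.89 in WT. The 21 loci were chosen for the difference between the untreated lines, so the untreated values restate that choice.

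**Figure D5:**
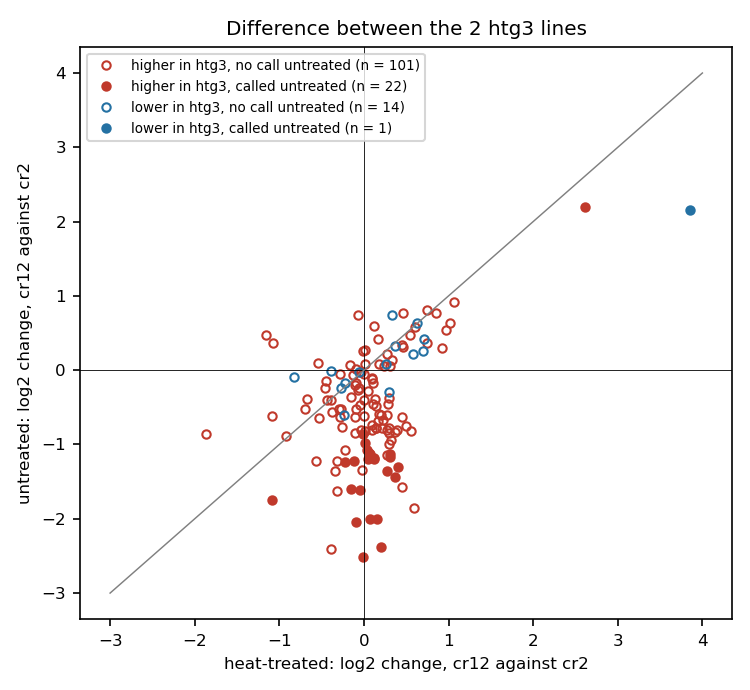
Log2 change of cr12 against cr2 after heat (x axis) and untreated (y axis), 1 point per locus, for the 123 higher and 15 lower loci, where filled points were called untreated (edgeR, adjusted p under 0.05) and the grey line marks equal change. The 21 filled points of higher loci below 0 spread around 0 on the x axis, while LOC_Os06g49350 and the lower locus LOC_Os03g54160 lie in the upper right.

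Several higher loci with wide gaps stood higher in cr12 than in cr2. In LOC_Os03g02470, LOC_Os07g15340, LOC_Os01g36064, LOC_Os12g05290 and LOC_Os01g71840 both cr12 libraries lay above both cr2 libraries in each treatment, without an edgeR call untreated. They were picked after their values were seen. Over the 21107 loci cr12 lay above cr2 in this way in 40.7% untreated and 25.5% after heat, and the share in both treatments was not counted. Other loci with wide gaps differed, and in LOC_Os06g40240 cr2 lay above cr12 in each treatment. The 1 higher locus that edgeR called higher in cr12 in both treatments was LOC_Os06g49350. It had 34.1 and 36.3 CPM in cr12 and 7.17 and 4.43 CPM in cr2 after heat, against 0.381, 0.148 and 0.7 CPM in WT (cr12 against cr2 2.61 ± 0.38, adjusted p = 0.0042). Untreated, it had 75.6 and 91.9 CPM in cr12 and 14 and 19.2 CPM in cr2, against 1.51, 1.28 and 1.45 CPM in WT (2.2 ± 0.38, adjusted p = 0.014). All 3 genotypes were apart in either treatment, and the level fell with heat in the htg3 lines (-1.28 ± 0.26) and in WT (-1.65 ± 0.37). The untreated call was lost without either untreated cr12 library, without untreated cr2 replicate 2 and when the fit held just the groups being compared (adjusted p up to 0.0745). LOC_Os12g05290 was also called higher in cr12 after heat (1.06 ± 0.25, adjusted p = 0.032), a call lost without either heat-treated cr12 library, without heat-treated cr2 replicate 2 and when the fit held just the groups being compared (adjusted p up to 0.213).

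The widest gaps among the 15 lower loci were narrower than the widest among the higher ones. The lower loci had a median shift of -1.48 after heat and -1.13 untreated, against 1.395 and 1.72 in the higher loci. No lower locus had an htg3 mean under 0.5 CPM in both treatments. LOC_Os07g27300 had the widest gap. It stood at 6.98 and 4.37 CPM in cr12 and 5.07 and 4.14 CPM in cr2 after heat, against 24.2, 25.3 and 25.1 CPM in WT, and at 10.2, 11.6, 11.1 and 13.3 CPM in untreated htg3 libraries, against 39.3, 43.8 and 45.9 CPM in WT. WT was 4.84 times the htg3 mean after heat and 3.72 times untreated. The groups lay far apart, although the heat-treated cr12 replicates differed more than those of WT.

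LOC_Os01g23710 gave 3.17, 2.13, 3.07 and 3.1 CPM in heat-treated htg3 libraries, against 8.13, 7.69 and 8.68 CPM in WT. Untreated, it gave 9.38, 10.2, 10.3 and 10.2 CPM in htg3 libraries, against 26.3, 24.8 and 25.7 CPM in WT. Here the lines did not part from each other, and the level fell with heat by a log2 change of -1.7 ± 0.11 in the htg3 lines and -1.5 ± 0.12 in WT (adjusted p = 7.5e-08 and 8.7e-07). Of the lower loci LOC_Os12g36630 fell most, in the htg3 lines (-2.31 ± 0.29, adjusted p = 2.4e-05) and in WT (-2.19 ± 0.31, adjusted p = 9.2e-05), with 0.245 ± 0.0586 CPM in heat-treated htg3 and 0.968 ± 0.163 CPM in heat-treated WT leaves, and 1.31 ± 0.529 and 4.93 ± 0.439 CPM in untreated htg3 and WT leaves.

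LOC_Os04g42120 and LOC_Os06g38120 were each called with heat in 1 genotype. LOC_Os04g42120 had 1.06, 0.358, 1.5 and 0.994 CPM in heat-treated htg3 libraries, against 5.17, 2.72 and 5.68 CPM in WT, and 0.467, 0.433, 0.45 and 0.438 CPM in untreated htg3 libraries, against 5.99, 5.39 and 5.21 CPM in WT. It rose with heat in the htg3 lines (1.17 ± 0.31, adjusted p = 0.0067, but 0.081 with limma-voom), and gave -0.16 ± 0.33 in WT (adjusted p = 0.73). LOC_Os06g38120, the lower locus with the highest mean CPM, had 11.7, 16.4, 11.3 and 10.6 CPM in heat-treated htg3 libraries, against 35.3, 49.4 and 48.7 CPM in WT. Its heat change was 0.53 ± 0.22 in the htg3 lines (adjusted p = 0.054), and it rose by 0.94 ± 0.25 in WT (adjusted p = 0.0071). The htg3 change passed the threshold in 6 of 20 alternatives, among them those without untreated cr12 replicate 1 (0.0011), heat-treated WT replicate 1 (0.049) or heat-treated cr12 replicate 1 (0.033).

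In LOC_Os03g54160 the line cr2 lay furthest from WT. It had 4.61 and 8.07 CPM in cr12 and 0.641 and 0.246 CPM in cr2 after heat, against 14.1, 13.3 and 13.6 CPM in WT (cr12 against cr2 3.85 ± 0.54, adjusted p = 0.0034). Untreated, it had 13.7 and 17 CPM in cr12 and 5.14 and 1.41 CPM in cr2, against 27.1, 29.1 and 35.1 CPM in WT (2.16 ± 0.47, adjusted p = 0.031). The 3 genotypes kept the same order in both treatments. The untreated call was lost without either untreated cr12 library, without untreated cr2 replicate 2 and when the fit held just the groups being compared (adjusted p up to 0.207). LOC_Os06g49930 was the other lower locus called between lines after heat (0.7 ± 0.17, adjusted p = 0.039), with 3.55 and 3.91 CPM in cr12 and 2.26 and 2.36 CPM in cr2, against 10, 6.89 and 7.97 CPM in WT. That call was lost in 11 of 20 alternatives, among them each heat-treated htg3 library left out (adjusted p up to 0.246).

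LOC_Os02g42370, LOC_Os01g01280, LOC_Os08g20486 and LOC_Os10g06510 complete the 12 lower loci with the widest gaps, beside LOC_Os07g30620. Their WT means were 2.91, 1.86, 2.73 and 1.99 times the htg3 means after heat, and 2.17, 1.72, 2.37 and 2.2 times untreated. LOC_Os10g06510 rose with heat in the htg3 lines (2.47 ± 0.21) and in WT (2.36 ± 0.23), to 4.02 ± 0.995 CPM in htg3 and 7.99 ± 1.25 CPM in WT leaves. With heat, 3 of the 15 lower loci rose and 9 fell in the htg3 lines, and 3 rose and 7 fell in WT. As shares these are 20% and 60%, and 20% and 46.7%, against the shares of all tested loci given for the higher loci.

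The 138 loci with a gap lay on all 12 chromosomes. Each of the 12 chromosomes held 6 to 21 of them, from 0.413% of its loci of at least 1 CPM on chromosome 5 to 0.934% on chromosome 12. Neighbours, taken as members at most 5 loci apart in the table, made 6 pairs (12 loci) and no longer run. How often other loci of at least 1 CPM make such pairs was not counted. Both loci of every pair were shifted in the same direction, but 123 of the 138 loci were higher, so like directions are common in any pair of them. These pairs were LOC_Os02g58370 with LOC_Os02g58390, LOC_Os06g03080 with LOC_Os06g03120, LOC_Os07g04430 with LOC_Os07g04450, LOC_Os07g30610 with LOC_Os07g30620, LOC_Os09g37600 with LOC_Os09g37650, and LOC_Os11g31420 with LOC_Os11g31470.

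LOC_Os06g03080 and LOC_Os06g03120 followed the same order over the libraries in part. LOC_Os06g03120 had 6.83, 3.7, 3.97 and 5.51 CPM in heat-treated htg3 libraries, against 0.515, 1.94 and 2.1 CPM in WT, and like its neighbour was lowest in replicate 1 of heat-treated WT. The lower pair fell unequally with heat in the htg3 lines, LOC_Os07g30610 by a log2 change of -1.98 ± 0.2 (adjusted p = 3.8e-06) and LOC_Os07g30620 by -0.56 ± 0.08 (adjusted p = 0.00011). LOC_Os07g30610 averaged 3.12 ± 0.614 CPM in heat-treated htg3 and 11.3 ± 3.69 CPM in heat-treated WT leaves, and 13.2 ± 1.99 CPM in untreated htg3 and 21.6 ± 1.39 CPM in untreated WT leaves. LOC_Os11g31420 and LOC_Os11g31470 stood at 2.21 ± 0.677 and 17.8 ± 2.45 CPM in heat-treated htg3 leaves, against 0.874 ± 0.166 and 6.29 ± 1.91 CPM in WT. Counts are not scaled for length, so the order of loci by CPM is not an order of transcript abundance. Neighbouring or similar loci can share reads to an unknown extent.

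Of the 11 loci that met the rule as 0 against 0, some belonged to a single line. LOC_Os10g21970 had 4.05 and 4.35 CPM in cr12 after heat and 15 and 14.1 CPM untreated, against 0 in cr2 and WT. LOC_Os04g24770 had 5.67 and 6.36 CPM in cr2 after heat and 12.1 and 8.77 CPM untreated, against 0 in cr12 and WT, and LOC_Os11g11694 likewise had 6.39 and 4.7 CPM and 2.06 and 5.51 CPM in cr2 alone. These loci had counts in 1 line only, which the rule did not exclude. LOC_Os01g60480 and LOC_Os11g08610 had counts in cr12 libraries alone, LOC_Os10g30240 in cr2 libraries alone, and LOC_Os09g08450 reached 28.4 CPM in 1 cr12 library.

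Others among the 11 were heat-induced loci with hardly any counts in untreated leaves, LOC_Os11g32890 and LOC_Os03g42520. LOC_Os11g32890 stood at 11.9, 15.1, 7 and 12.4 CPM in heat-treated htg3 libraries, against 21, 32.4 and 23.4 CPM in WT, and was at 0 in all untreated libraries but 1, at 0.0516 CPM. LOC_Os03g42520 stood at 2.85, 1.67, 2.32 and 2.9 CPM in heat-treated htg3 libraries, against 4.87, 6.76 and 5.01 CPM in WT, and at 0 untreated. For both, the gap lies in the heat-treated libraries. LOC_Os06g44860 was higher in htg3 leaves after heat (4.08 ± 0.874 against 1.43 ± 0.782 CPM in WT). Untreated, it had 1.36 and 1.58 CPM in cr2, 0.109 and 0 CPM in cr12, and 0 in WT. LOC_Os02g43050 had 24.9 CPM in 1 heat-treated and 28.6 CPM in 1 untreated WT library and 0 in the other 12 libraries.

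At the edge of the rule the calls are a matter of small steps. The higher loci just inside the ratio of 1.3 were LOC_Os01g01350 and LOC_Os10g42230, whose smaller edge ratio of the 2 treatments was 1.304 and 1.307. LOC_Os08g16830 (1.299) and LOC_Os05g10330 (1.298) lay just outside. For the lower loci LOC_Os07g30610 (1.347) and LOC_Os10g35090 (1.349) lay just inside and LOC_Os01g35160 (1.282) and LOC_Os03g19436 (1.271) just outside. Single libraries can also carry a mean, as in LOC_Os03g05334, which had 47.8 CPM in heat-treated cr2 replicate 2 against 7.58, 7.95 and 8.96 CPM in the other heat-treated htg3 libraries, and 4.35, 2.08 and 5.26 CPM in WT.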

How the data were processed

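Leaf RNA of 14 libraries was sequenced on Illumina protocols, per the labels' protocols. The authors deposited 1 table of estimated counts for 55986 loci, with StringTie in the column names, and the submitters' processing notes list DESeq2, HISAT2 2.1.0, fastp 0.20.1 and StringTie 1.3.3b without roles or settings. Which genome build was used is not stated in the labels used here. The estimated counts as deposited are whole numbers that gather at 4 (this value occurs 9196 times, while 3 occurs 3918 times and 5 occurs 5346 times), so 1 fragment was taken as about 4 counts. Intervals from depth cover counting error only.

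CPM is the count divided by the library total, times 1000000. Loci kept by filterByExpr were tested with the quasi-likelihood method of edgeR 4.0.16 after TMM scaling, run in R 4.3.3, in 1 fit of 6 groups over 28823 loci, with Benjamini-Hochberg adjustment over all of them and calls at 0.05. All 149 loci passed the filter, and TMM factors were 0.899 to 1.1. Each SE was derived from the log2 change and its F statistic (change over root of F). The tested comparisons were heat in the htg3 lines, heat in WT, and cr12 against cr2 in each treatment. The shift between genotypes was not tested because it chose the loci. Alternatives were DESeq2 1.42.0, limma-voom (limma 3.58.1), DESeq2 size factors, no filter, fits holding just the groups being compared, counts divided by 4, and leaving out each library.

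Named loci are the 12 with the widest gaps and the 4 with the highest mean CPM in each direction, those nearest the ratio of 1.3, the 3 with the largest called change in each direction of each comparison, and pairs of neighbours. Loci said to be picked otherwise were chosen after their values were seen. The loci, lists and tests were chosen with earlier results of these data known. No table used here pairs the locus IDs with gene names or sequences.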

Additional observations from a re-analysis of the deposited data

Results flagged for a closer look

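LOC_Os02g57110 and LOC_Os05g38000 were picked out because heat moved the lines in opposite directions in every library. LOC_Os02g57110 had 170 and 240 CPM in heat-treated cr12 against 99.2 and 115 CPM in untreated cr12, but 128 and 153 CPM in heat-treated cr2 against 166 and 180 CPM in untreated cr2. The heat change of cr12 minus that of cr2 was 1.36 ± 0.36 on the log2 scale (edgeR, adjusted p = 0.21). LOC_Os05g38000 had 86 and 135 CPM in heat-treated cr12 against 49.6 and 71.6 CPM untreated, and 78.3 and 79 CPM in heat-treated cr2 against 94.5 and 93.3 CPM untreated, a difference of 1.25 ± 0.42 (adjusted p = 0.305). Both differences missed the threshold, though that of LOC_Os02g57110 passed it with DESeq2 (adjusted p = 0.016). This test was added after the values were seen. Across the 123 higher loci it gave 0 calls by edgeR in the direction of a stronger rise in cr12 (37 at an unadjusted p under 0.05, 14 calls by DESeq2, 0 by limma-voom), with a median difference of 0.568, against -0.0471 over all tested loci. The shares of all tested loci at an unadjusted p under 0.05 or called by DESeq2 were not counted.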

How the results depend on the processing

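The number of higher loci with a gap, 123, was 187 at a ratio of 1.2 and 63 at 1.5, and 121 to 192 with 1 library left out. The lower loci, 15, numbered 23 and 6, and 16 to 20. Since a left-out library cannot close a gap, the counts with 1 library left out could fall only through the minimum mean of 1 CPM. Library sizes scaled by TMM and a minimum of 2 CPM kept both counts within 1.5 times. Leaving out a library, the heat response of the higher loci gave 55 to 65 rises and 11 to 21 falls in the htg3 lines, and 65 to 71 rises and 9 to 10 falls in WT. The 12 WT falls were 7 when the fit held just the groups being compared. The lower loci gave 3 to 4 rises and 8 to 9 falls in the htg3 lines, and 2 to 3 rises and 6 to 8 falls in WT. Untreated, the 21 higher loci lower in cr12 than in cr2 numbered 36 with DESeq2, 1 when the fit held just the groups being compared and 1 to 28 leaving out a library. The 1 higher in cr12 became 3 with DESeq2, 4 with limma-voom, 2 without a filter, 0 when the fit held just the groups being compared and 2 with counts divided by 4 (0 to 2 leaving out a library), and the 1 lower locus higher in cr12 was lost when the fit held just the groups being compared (0), with 0 to 1. After heat, the 2 higher loci higher in cr12 became 5 with DESeq2, 7 with limma-voom and 5 with counts divided by 4 (1 to 3), the 0 lower in cr12 became 1 with DESeq2 and 1 with limma-voom (0 to 1), and the 2 lower loci higher in cr12 became 1 with limma-voom and 1 when the fit held just the groups being compared (1 to 2). No lower locus was lower in cr12 (0 by edgeR, DESeq2 and limma-voom after heat, 1 at an unadjusted p under 0.05), with 0 to 1. The line-by-heat test gave 14 calls with DESeq2 and 2 without a filter (0 to 1). Neighbours numbered 12, 6 at a distance of at most 2 loci and 18 at a distance of at most 10. Of 958 values of named loci under alternatives 898 kept direction and call, 52 lost the call, 7 gained one and 1 reversed, the uncalled heat change of LOC_Os04g42120 in WT, which ran from -0.293 to 0.1 when leaving out a library (-0.155 with all). No paired analysis was possible because the labels give no replicate numbers shared between groups. The causes were not tested.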
